A study of Mus musculus with 18 samples.

Results

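The comparison described here sets 3 libraries of the NC-labelled BV2 line after 12 h of oxyhemoglobin against 3 libraries of the same line without it, 6 of the 18 libraries in the series. BV2 is an immortalized mouse microglial line. The 6 libraries were chosen by their titles alone, and no measured value entered the choice. The control group is the NC line at 0 h, with no oxyhemoglobin. The treated group is the NC line after 12 h of oxyhemoglobin, hemoglobin with bound oxygen. The dose is labelled 10 mM, a concentration so high for any protein that its unit is in doubt. Cells of both groups were plated 12 h before the stimulus. The labels do not spell out NC, and the other line of the series is labelled BAK1-KD and called the KD-labelled line below. No untreated NC sample at 12 h was among the samples used here, so time in culture and oxyhemoglobin cannot be told apart. The treatment note speaks of 1 replicate, and separate cultures behind the 3 libraries of a group are nowhere stated, so the p-values below measure only the spread between these libraries.

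Microglia are the resident macrophages of the brain, and after bleeding they take up hemoglobin and its iron. Macrophages that meet an inflammatory stimulus are known to change far more than their cytokines: they switch surface receptors, replace transcription factors of the resting state, turn citrate toward itaconate, move iron and other metals, and secrete enzymes that cut the surrounding matrix. The comparison describes how genes of those systems differed between the treated 12 h and the control libraries of the NC line, apart from the cytokine and stress responses.

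Total counts per library ran from 4818352 to 5546969. The row CT010467.2 alone held 17.39 to 21.46% of the counts in control and 13.11 to 17.18% at 12 h, and the groups did not overlap. Counts were scaled with TMM factors (the trimmed mean of M-values), and other scalings of the counts moved the median change of all tested genes by at most 0.02 on the log2 scale. Mitochondrially encoded genes held 1.06 to 1.55% of counts in control and 0.605 to 0.97% at 12 h. Libraries with the number 2 stood apart from the others along the second principal component. Of 20 microglia and macrophage markers, 16 were tested. By the test given below 4 were higher at 12 h (Spi1, Mpeg1, Cd14 and Itgam) and 1 lower (Trem2), and Itgam lost its call in 7 of 15 alternative runs. Itgam also shares 68.7% of its exon bases with another gene model on the same strand, so its level is uncertain. Levels differed widely. Lyz2 stood at 2584 to 4452 CPM, and Csf1r, Cd68 and Tyrobp were low, at 1.44 to 11 CPM. Tmem119 had 17 to 51 counts, Cx3cr1 1 to 22 and Fcgr3 2 to 12. Sall1 was at 0 in all 6 libraries, P2ry12 had at most 3 counts in any library and Aif1 at most 4, so these 3 markers were at or near 0. Of 12 neuron markers 9 were at 0 in all 6 libraries, as were 6 of 12 fibroblast and endothelial markers. The summed level of the neuron markers went from 8.58 to 10.1 CPM in control to 2.34 to 2.7 CPM at 12 h, in control most of it Gad1, a GABA-synthesising enzyme named after its value was seen, which fell from 7.09, 9.24 and 5.51 CPM to 1.8, 1.26 and 0.198 CPM (-2.75 ± 0.47, adjusted p = 0.00029). The part of neuron-marker RNA in the results was not tested.

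Values below are CPM (counts scaled to the library total after TMM) for libraries 1, 2 and 3 of a group in that order, with n = 3 in each group. Changes are log2 fold changes of 12 h over control ± SE from edgeR's quasi-likelihood test, with p-values adjusted by Benjamini-Hochberg over 15996 genes and a threshold of 0.05. Of these genes 1070 (6.69%) were higher and 888 (5.55%) lower at 12 h, 12.2% in all. The 3 control and 3 treated libraries did not overlap for 4243 genes, 26.5%. Libraries with the same number deviated together, and with the number as a block 2190 genes (13.7%) were higher and 1758 (11.0%) lower, 24.7% in all. List counts with the block, given below, stand beside these larger shares. The list counts without it stand beside 6.69%, 5.55% and 12.2%. Lists taken by symbol pattern hold only protein-coding genes, which were called more often than other gene types together. Of 10676 tested protein-coding genes 878 were higher and 711 lower, 14.9% called. Without 12 h library 3, 714 genes were higher and 583 lower. On log2(TPM + 0.1) (TPM, counts scaled by gene length and library) 64.7% of the genes past the threshold were higher, against 54.6% here. The median change over all tested genes was -0.01. Called genes came from the whole range of levels, but calls were more frequent at higher levels. Of 213 tested genes above 500 CPM, 51 were higher and 28 lower, and of 2945 at 50 to 500 CPM, 453 and 236. Of 7598 at 5 to 50 CPM, 430 were higher and 485 lower, and of 5240 under 5 CPM, 136 and 139.

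**Figure D1:**
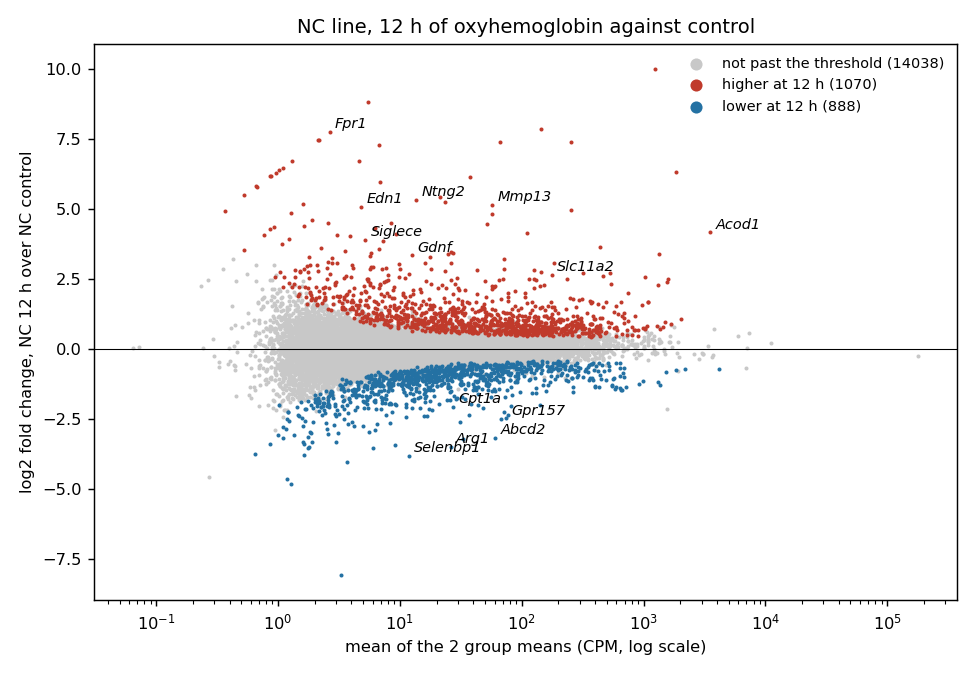
Log2 fold change at 12 h in the NC line (y axis) against the mean of the control and 12 h means in CPM (x axis, log scale) for 15996 tested genes, 1 point per gene. Red points are the 1070 genes higher and blue points the 888 genes lower at 12 h; Acod1 is the named gene farthest to the right among those that rose.

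Among called genes outside the chemokines, Acod1 had the largest gain in TPM. It encodes the mitochondrial enzyme that makes itaconate from cis-aconitate (chr14:103046977-103056573 in GRCm38 with GENCODE M21, as for all genes below, plus strand). Acod1 stood at 432, 324 and 366 CPM in control and at 7403, 5440 and 7159 CPM at 12 h, a log2 fold change of 4.16 ± 0.20 (adjusted p = 1.78e-12). Every treated library was far above every control library. Per transcript length, Acod1 went from 254 ± 8.34 to 4630 ± 115 TPM (mean ± SD, n = 3), and among all called genes its gain in mean TPM ranked behind only those of Ccl7 and Ccl3. Wfdc17, a small secreted whey-acidic protein of macrophages, was also among the 10 largest gains, from 39.2, 42.1 and 36.1 CPM to 330, 309 and 345 CPM (3.07 ± 0.23 on the log2 scale, adjusted p = 3.04e-09).

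Among called genes, the 10 largest losses of TPM were all replication-dependent histone genes, whose messages are made in S phase. H3c11 fell from 1139, 828 and 852 CPM to 403, 294 and 365 CPM (log2 fold change -1.41 ± 0.18, adjusted p = 8.07e-06), and H1f5 from 961, 632 and 967 CPM to 370, 235 and 380 CPM (-1.38 ± 0.23, adjusted p = 0.000242). In both, the groups were separate. Histone genes of a type are near-identical copies that share reads, so the split of counts among H3c11, H3c10, H3c3, H3c6 and H3c8 is uncertain. Fewer cells in S phase and less histone RNA per cell cannot be told apart in bulk RNA.

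Some of the largest relative changes fell on genes outside the usual inflammatory lists. Ntng2, a membrane-anchored netrin-G that guides axons, was at 0.209, 0.495 and 1.23 CPM in control and 33.8, 26.9 and 18.8 CPM at 12 h (5.33 ± 0.47, adjusted p = 3.53e-08). Lix1 rose from 0.835, 1.65 and 1.02 CPM to 47.5, 41.5 and 48.2 CPM (5.22 ± 0.27, adjusted p = 3.7e-12). The unnamed transcript Gm19026 rose from 1.88, 0.66 and 0.613 CPM to 88, 60.9 and 71.9 CPM (6.14 ± 0.33, adjusted p = 7.91e-12). All 3 had few counts in control, and Ntng2 shares 14% of its exon bases with another gene model on the same strand. In the other direction, Cytip, which binds the cytohesin exchange factors that regulate integrin adhesion, fell from 50.5, 67.9 and 60.9 CPM to 6.08, 5.39 and 7.93 CPM (-3.21 ± 0.25, adjusted p = 6.38e-09). Ipcef1, which also binds cytohesins, fell from 14.2, 17.3 and 18.4 CPM to 1.8, 1.62 and 1.19 CPM (-3.42 ± 0.31, adjusted p = 5.24e-08). The control and treated libraries of both were separate by several fold.

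**Figure D2:**
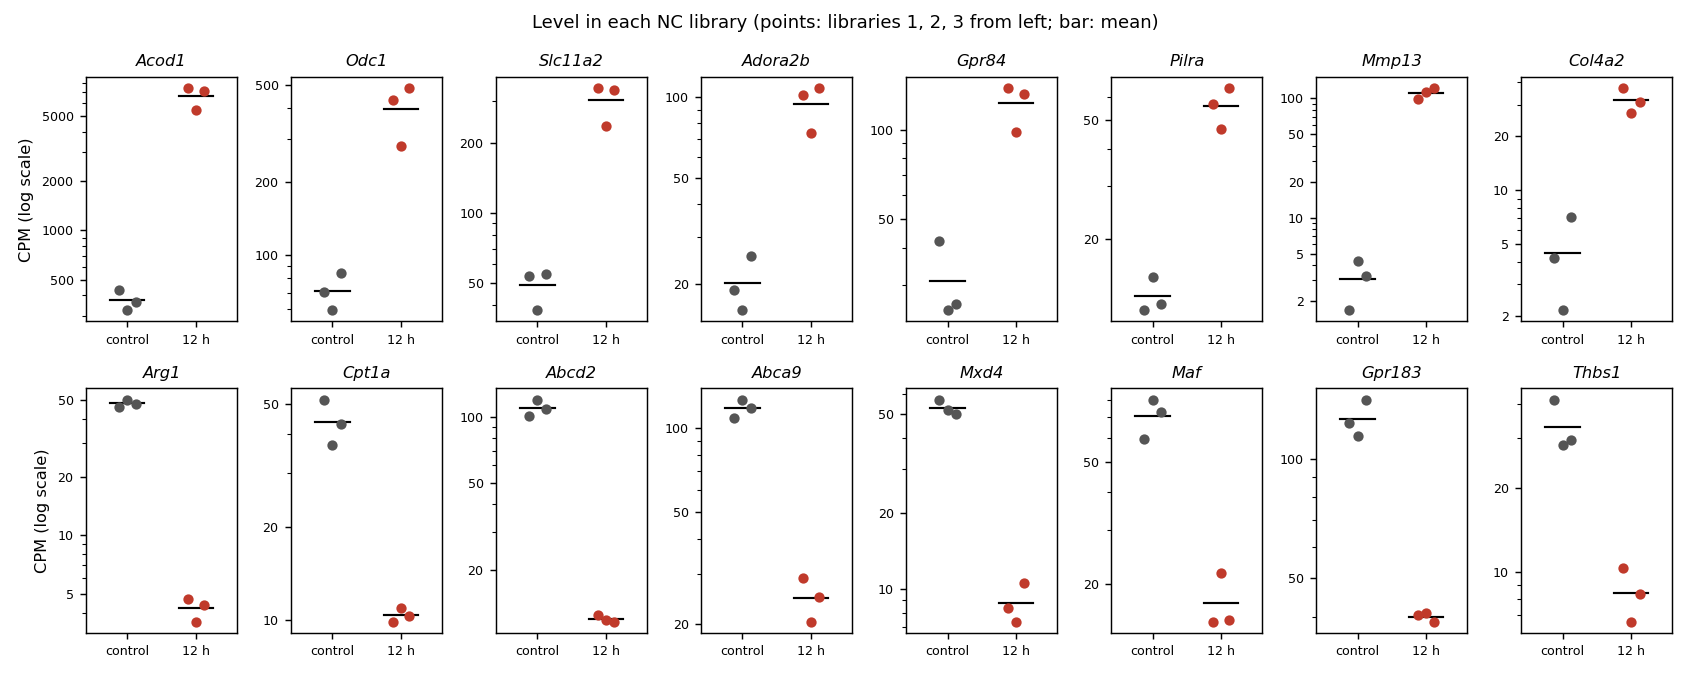
Level in CPM (y axis, log scale, a separate scale in each panel) of 16 genes in the 3 control and 3 treated NC libraries; points from left to right are libraries 1, 2 and 3 and bars are means. In the upper row each 12 h library lies above each control library, in the lower row below, and Abcd2 and Gpr183 show little spread at 12 h.

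G protein-coupled receptors turned over in both directions. Of 29 tested receptors for hormones, lipids, nucleosides, peptides and amines (70 in the annotation), 10 were higher and 5 lower, against 6.69% and 5.55% of all tested genes, with a median log2 fold change of 0.24. Among the receptors for chemoattractants, Ltb4r1, the high-affinity receptor for leukotriene B4, had 1, 0 and 0 counts in control and 53, 51 and 32 at 12 h. That is a ratio of 142 with an exact 95% counting interval of 25.1 to 5661. C3ar1, the receptor for the complement fragment C3a, rose from 247, 244 and 260 CPM to 501, 486 and 598 CPM (1.08 ± 0.16, adjusted p = 7.57e-05). Adora2b, the low-affinity adenosine receptor that raises cyclic AMP, rose from 19, 16 and 25.5 CPM to 102, 73.5 and 108 CPM (2.23 ± 0.21, adjusted p = 1.23e-07). The high-affinity adenosine receptor Adora2a rose as well, from 0, 2 and 3 counts to 20, 10 and 18 (3.26 ± 0.81, adjusted p = 0.00834). Both cyclic AMP-raising adenosine receptors were thus higher. Adra1a, an alpha-1 adrenergic receptor that signals through calcium, rose from 1.88, 3.79 and 1.23 CPM to 10.4, 16.7 and 10.3 CPM (2.39 ± 0.37, adjusted p = 9.42e-05). Hcar2, the receptor for niacin and beta-hydroxybutyrate, rose from 205, 174 and 202 CPM to 418, 339 and 500 CPM (1.11 ± 0.19, adjusted p = 0.000332). In each of these receptors the control and treated libraries were separate. C3ar1, Adora2a and Hcar2 lie outside the naming rule and were chosen after their values were seen.

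Gpr183, S1pr1 and Gpr157 were among the receptors that fell. S1pr1, a receptor for the lipid sphingosine phosphate, went from 107, 69.6 and 110 CPM to 44.6, 26 and 34.7 CPM (-1.45 ± 0.24, adjusted p = 0.000179). Gpr183, a receptor for oxysterols (chr14:121952551-121965195, minus strand), went from 123, 115 and 141 CPM to 40.3, 41 and 38.8 CPM (-1.66 ± 0.16, adjusted p = 1.24e-07). The treated libraries of Gpr183 lay within 3 CPM of each other. Gpr157, an orphan receptor, fell from 143, 115 and 120 CPM to 25, 20.8 and 21.8 CPM (-2.49 ± 0.22, adjusted p = 3.91e-08). Gpr84, a receptor for medium-chain fatty acids, went the other way, from 41.9, 24.6 and 25.7 CPM to 138, 98.1 and 132 CPM (2.00 ± 0.24, adjusted p = 3.67e-06). The annotation places 39.5% of the exon bases of Gpr84 under a transcript on the other strand, and with strand not known its reads cannot be told apart from that transcript's. Of 33 tested orphan-numbered and adhesion receptors, 2 were higher and 5 lower (median -0.20).

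Enzymes and regulators downstream of such receptors changed as well. Pde4b, a phosphodiesterase that degrades cyclic AMP, rose from 18.8, 27 and 30 CPM to 71.4, 67.4 and 74.1 CPM (1.49 ± 0.20, adjusted p = 1.52e-05). Pde7b, another cyclic AMP phosphodiesterase, fell from 54.3, 68.4 and 56.8 CPM to 15.8, 28.2 and 24.8 CPM (-1.38 ± 0.20, adjusted p = 4.71e-05). The libraries of both genes were separate between the groups, in opposite directions. Rgs2, which shortens signalling by Gq-coupled receptors, fell from 70.7, 83.9 and 78.2 CPM to 26.3, 29.3 and 29.1 CPM (-1.46 ± 0.18, adjusted p = 3.92e-06). Of 10 tested RGS genes, none was called higher and 2 were lower, 1 and 3 with the replicate block, and the median over the 10 was -0.54.

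Paired immune receptors are sets of inhibitory and activating surface proteins, often encoded side by side, that read sialic acids, MHC class I and antibody. Of 35 tested members (58 in the annotation), 11 were higher and 3 lower, 16 and 5 with the replicate block, with a median of 0.46. Siglece, an inhibitory receptor for sialic acids, rose from 4, 4 and 2 counts in control to 46, 44 and 55 at 12 h (3.88 ± 0.43, adjusted p = 9.62e-07). Cd33, another receptor for sialic acids, fell from 302, 460 and 379 CPM to 165, 222 and 180 CPM (-1.01 ± 0.18, adjusted p = 0.000468). Cd33 was chosen after its value was seen, and its call was lost with limma on log2 TPM (adjusted p = 0.0907 to 0.137). The PILR genes, which form a cluster on chromosome 5, rose together. Pilra, the inhibitory member, rose from 11.5, 14.8 and 12 CPM to 56.7, 46.5 and 64 CPM (2.12 ± 0.23, adjusted p = 5.76e-07). Pilrb1, an activating member, rose from 1.46, 1.98 and 0.613 CPM to 11.7, 9.7 and 8.72 CPM (2.84 ± 0.35, adjusted p = 5.9e-06). Pilrb2, the other activating member, rose from 1.46, 1.48 and 1.84 CPM to 9.68, 8.26 and 9.51 CPM (2.50 ± 0.37, adjusted p = 5.21e-05). Control and treated libraries were separate in all 3. The promoter windows of the 3 genes are shown because the genes moved together and the windows are near copies of each other. Each runs from 250 bases before to 50 after the start in RefSeq (GRCm38.p6, minus strand, at chr5:137836229-137836528 for Pilra, chr5:137858000-137858299 for Pilrb1 and chr5:137871709-137872008 for Pilrb2), and the capitals mark a match to the interferon-response core (GAAA, any 2 bases, GAAA).
Pilra: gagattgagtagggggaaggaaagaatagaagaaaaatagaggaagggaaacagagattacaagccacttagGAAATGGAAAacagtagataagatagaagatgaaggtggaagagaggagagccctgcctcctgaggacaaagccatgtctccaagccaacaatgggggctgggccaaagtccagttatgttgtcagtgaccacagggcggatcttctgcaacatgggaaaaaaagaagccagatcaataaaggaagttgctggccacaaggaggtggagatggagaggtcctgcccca
Pilrb1: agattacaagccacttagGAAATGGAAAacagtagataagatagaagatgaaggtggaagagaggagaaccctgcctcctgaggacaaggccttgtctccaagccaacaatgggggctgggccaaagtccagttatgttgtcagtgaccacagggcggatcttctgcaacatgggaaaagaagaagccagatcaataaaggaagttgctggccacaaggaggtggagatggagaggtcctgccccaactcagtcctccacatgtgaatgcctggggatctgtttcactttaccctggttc
Pilrb2: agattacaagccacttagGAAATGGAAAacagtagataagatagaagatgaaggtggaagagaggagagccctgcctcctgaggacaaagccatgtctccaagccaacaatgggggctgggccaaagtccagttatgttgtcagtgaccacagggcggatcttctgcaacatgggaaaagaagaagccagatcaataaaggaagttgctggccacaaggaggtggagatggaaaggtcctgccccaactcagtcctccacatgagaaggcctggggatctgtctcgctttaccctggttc
The marked match stands at -178 from the start in Pilra and at -232 in both activating genes. Of the 12 motifs counted, each of the 3 windows also matched TTGCNNAA, the C/EBP core, which is not marked. The windows of Pilrb1 and Pilrb2 were identical at 292 of 300 positions, with 8 mismatches. Reads from such copies may have been split or dropped, and 15.1% of the exon bases of Pilra lie under Zcwpw1 on the other strand, so the separate values of the 3 genes are uncertain. Members of the list with other roles moved apart. The high-affinity antibody receptor Fcgr1 rose from 111, 91.5 and 90.5 CPM to 241, 176 and 236 CPM (1.16 ± 0.17, adjusted p = 4.56e-05). Vsir, the checkpoint protein VISTA, fell from 12.9, 15.3 and 15.1 CPM to 7.2, 5.21 and 5.35 CPM (-1.29 ± 0.26, adjusted p = 0.00154). Fcgr1 was chosen after its value was seen.

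Ligands that macrophages show to lymphocytes and to each other were more often higher than lower, 6 against 2 of 27 tested (median 0.28), and 12 against 2 with the replicate block. Cd274, the checkpoint ligand PD-L1, rose from 68, 64.2 and 69.2 CPM to 183, 167 and 178 CPM (1.39 ± 0.14, adjusted p = 1.45e-07). Cd40, the receptor through which T cells license macrophages, rose from 4.8, 6.93 and 3.47 CPM to 13.1, 13.7 and 16.8 CPM (1.50 ± 0.28, adjusted p = 0.000781). Slamf8, a SLAM-family protein of myeloid cells, rose from 3.55, 1.15 and 0.408 CPM to 12.4, 7.01 and 8.13 CPM (2.43 ± 0.52, adjusted p = 0.00271). The treated libraries lay above the control libraries in all 3. Icam1, the integrin ligand, stood at 238, 144 and 210 CPM in control and 336, 223 and 323 CPM at 12 h and did not pass (0.58 ± 0.25, adjusted p = 0.15), but did with the replicate block (adjusted p = 5.9e-07). The Slamf8 window, with the same span (chr1:172590519-172590818, minus strand), is shown because it held matches to 4 of the 12 motifs counted. Capitals mark a match to the E-box CACGTG at -157, to the interferon-response core on the other strand at -15, to TGANTCA, the AP-1 core, at 9 and to the NF-kB core (GGG, any 2 bases, TTTCC) at 36.
Slamf8: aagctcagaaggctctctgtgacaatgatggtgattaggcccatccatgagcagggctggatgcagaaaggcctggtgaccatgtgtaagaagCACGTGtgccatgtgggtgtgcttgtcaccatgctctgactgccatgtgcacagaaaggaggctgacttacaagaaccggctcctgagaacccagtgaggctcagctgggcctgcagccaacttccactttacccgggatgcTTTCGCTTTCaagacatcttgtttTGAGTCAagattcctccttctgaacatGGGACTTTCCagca

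Growth factors rose in 5 and fell in 2 of 23 tested genes (median 0.15). Edn1, which encodes the vasoconstrictor endothelin-1, went from 0, 1 and 3 counts to 43, 46 and 51 (5.07 ± 0.54, adjusted p = 5.76e-07). Gdnf, the glial neurotrophic factor, rose from 2.5, 1.32 and 3.06 CPM to 23.9, 23.5 and 21.4 CPM (3.33 ± 0.29, adjusted p = 3.53e-08). Both had few counts in control. Among factors already present, Tgfb1 rose from 553, 317 and 352 CPM to 1148, 680 and 913 CPM (1.17 ± 0.25, adjusted p = 0.00245). Hbegf, a ligand of the EGF receptor, rose from 20.7, 20.8 and 15.3 CPM to 49.8, 46.5 and 41.8 CPM (1.28 ± 0.19, adjusted p = 5.03e-05). Pdgfb, the platelet-derived growth factor B chain, rose from 49.7, 34 and 42.1 CPM to 96.4, 77.1 and 97.7 CPM (1.11 ± 0.19, adjusted p = 0.000284). Vegfa, the angiogenic factor, fell from 23.8, 16 and 14.3 CPM to 5.85, 6.83 and 7.53 CPM (-1.41 ± 0.31, adjusted p = 0.00276). The control and treated libraries were separate for each of the 6.

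Genes of TGF-beta, Notch and Wnt signalling moved in both directions. While the Tgfb1 ligand rose, Nrros, which holds latent TGF-beta1 on the microglial surface, fell from 30, 35.3 and 32.3 CPM to 17.3, 14.9 and 18.6 CPM (-0.94 ± 0.18, adjusted p = 0.000823). Id3, a dominant-negative helix-loop-helix factor that BMP and TGF-beta signals regulate, rose from 3.34, 4.12 and 2.04 CPM to 24.3, 18.3 and 19.4 CPM (2.68 ± 0.36, adjusted p = 1.56e-05). The whole list of 30 tested pathway genes had 3 higher and 4 lower (median -0.21), so most of its members did not pass. Notch1 rose from 29.6, 20.9 and 27.8 CPM to 84.4, 56.6 and 72.5 CPM (1.45 ± 0.24, adjusted p = 0.000201), and its ligand Jag2 fell from 168, 104 and 110 CPM to 73.6, 42.9 and 51.9 CPM (-1.18 ± 0.25, adjusted p = 0.00207). Over the 24 tested Notch pathway genes 4 were higher and 2 lower (median -0.16), and 4 and 7 with the replicate block. Fzd7, a Wnt receptor, fell from 1034, 683 and 842 CPM to 481, 358 and 463 CPM (-0.97 ± 0.20, adjusted p = 0.00141). Fzd5 rose from 32.1, 33.2 and 30.2 CPM to 84.4, 64.3 and 76.5 CPM (1.24 ± 0.18, adjusted p = 3.72e-05), with 17.8% of its exon bases under a transcript of the other strand. Of receptor chains, Il4ra rose from 10.9, 7.26 and 11.6 CPM to 34.9, 17.8 and 26.8 CPM (1.42 ± 0.25, adjusted p = 0.000363), Il6ra fell from 109, 141 and 86.2 CPM to 30.2, 42.4 and 30.1 CPM (-1.71 ± 0.25, adjusted p = 3.59e-05), and the kinase Igf1r fell from 446, 377 and 421 CPM to 289, 216 and 257 CPM (-0.71 ± 0.15, adjusted p = 0.00298).

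Among bZIP transcription factors Maf fell while Junb, Fosl2, Fosl1 and Cebpd rose. Maf, a factor of differentiated macrophages, fell from 59.5, 80 and 72.7 CPM to 15.1, 21.7 and 15.3 CPM (-2.02 ± 0.24, adjusted p = 2.43e-06). The highest treated library was below the lowest control library. Junb rose from 441, 316 and 342 CPM to 1074, 686 and 872 CPM (1.26 ± 0.21, adjusted p = 0.00026). Fosl2 rose from 158, 122 and 149 CPM to 326, 257 and 297 CPM (1.04 ± 0.17, adjusted p = 0.000142), and Fosl1, chosen after its value was seen, went from 3, 1 and 1 counts to 19, 17 and 26 (3.60 ± 0.53, adjusted p = 4.7e-05). These are partners in AP-1 dimers. Cebpd rose from 114, 57.1 and 83.9 CPM to 297, 188 and 248 CPM (1.53 ± 0.29, adjusted p = 0.00119). Over all 39 tested bZIP factors 7 were higher and 3 lower, 11 and 5 with the replicate block, with a median of 0.05.

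Of 10 tested Kruppel-like factors 3 were lower and none was called higher, 4 lower and 2 higher with the replicate block (median -0.31). Klf11 fell from 24.8, 26.2 and 25.1 CPM to 9, 5.39 and 6.34 CPM (-1.89 ± 0.23, adjusted p = 3.99e-06), and Klf4 from 18.8, 13.4 and 18.2 CPM to 8.33, 5.93 and 8.72 CPM (-1.13 ± 0.26, adjusted p = 0.00394). Mxd4, which competes with Myc for Max, fell from 57.2, 52 and 50 CPM to 8.33, 7.36 and 10.5 CPM (-2.60 ± 0.21, adjusted p = 8.19e-09). Tfeb, the regulator of lysosome genes, fell from 29.6, 17.5 and 17.6 CPM to 11.5, 8.8 and 8.52 CPM (-1.17 ± 0.28, adjusted p = 0.00598). Bhlhe41, a clock repressor of microglia and other macrophages, fell from 352, 331 and 285 CPM to 201, 199 and 187 CPM (-0.72 ± 0.14, adjusted p = 0.000828), with 19% of its exon bases shared with a transcript of the other strand. Hdac9, a class IIa histone deacetylase, fell from 15.7, 24.7 and 13.5 CPM to 4.95, 4.49 and 4.36 CPM (-1.97 ± 0.37, adjusted p = 0.000651). Each of the 6 had separate groups. The 250 tested numbered zinc finger proteins gave 6 higher and 11 lower, and the 81 chromatin writers and erasers 2 and 4, both shares below those of all tested genes.

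RefSeq windows of 300 bases (GRCm38.p6) were matched for 749 of the 1070 higher genes, 593 of the 888 lower genes and 9400 tested genes, and 12 motifs were counted on both strands. The NF-kB core was found for 3.74% of the higher genes, 2.02% of the lower genes and 2.09% of all tested. TGANTCA, the AP-1 core, was in 10.8%, 5.56% and 6.47%. The interferon-response core was in 6.41%, 3.88% and 3.81%. TTTGAA, a stretch found in cell-cycle promoters, went the other way, with 12% of higher, 24.5% of lower and 15% of tested genes, and CCAAT was in 43.4%, 50.3% and 42.5%. Over all 27025 symbols with a window the shares were 1.89% for the NF-kB core, 8.97% for the AP-1 core, 3.99% for the interferon-response core, 20.2% for TTTGAA and 41.1% for CCAAT. The other 7 motifs counted were the cores of the cyclic AMP, antioxidant and amino acid response elements, of the C/EBP and E2F sites, TGCTGAC of the Maf site and the E-box CACGTG, which was in 12.7% of higher, 7.76% of lower and 11.9% of tested genes. The shares are a description of these windows.

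RNA decay factors moved at the same time. Zc3h12a, the endonuclease Regnase-1 that cuts inflammatory messages, rose from 47.8, 30.5 and 43.7 CPM to 271, 176 and 219 CPM (2.45 ± 0.22, adjusted p = 5.69e-08), and its relative Zc3h12c from 13.4, 10.7 and 10.2 CPM to 27.9, 21.9 and 24.6 CPM (1.12 ± 0.23, adjusted p = 0.00161). Over 31 tested decay and deadenylation genes 4 were higher and 2 lower (median -0.19). The row of Mir146, a microRNA locus known to be induced by NF-kB and to dampen Toll-like receptor signalling, went from 5, 12 and 7 counts to 29, 34 and 24 (1.92 ± 0.42, adjusted p = 0.00292) and was chosen after its value was seen. The row counts reads over the annotated locus and does not measure the mature miRNA, whose 5p arm (RefSeq, GRCm38.p6, chr11:43374435-43374456, minus strand) is shown with its seed in capitals.
miR-146a-5p: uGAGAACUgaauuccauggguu

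Of 40 tested genes of the TCA cycle and its branches 2 were higher (Acod1 among them) and 2 lower (median 0.14). That is 10% called, below the 12.2% of all tested genes. With the replicate block 8 were higher and 3 lower, where 24.7% of all tested genes were called. Pdk1, which inhibits pyruvate dehydrogenase, fell from 105, 106 and 115 CPM to 47.3, 53.3 and 49.7 CPM (-1.12 ± 0.16, adjusted p = 2.5e-05). Pck2, the mitochondrial phosphoenolpyruvate carboxykinase, fell from 88.1, 64 and 78.4 CPM to 49.3, 34.5 and 44 CPM (-0.85 ± 0.21, adjusted p = 0.0074). In the pentose phosphate pathway, which supplies NADPH, G6pdx rose from 376, 241 and 259 CPM to 737, 493 and 656 CPM (1.11 ± 0.22, adjusted p = 0.00121), and Pgd from 1322, 817 and 951 CPM to 2301, 1553 and 2106 CPM (0.95 ± 0.22, adjusted p = 0.0051). These encode both NADPH-producing steps of the pathway. Nadk, which makes NADP from NAD, rose from 12.9, 15.3 and 12.5 CPM to 28.8, 26.2 and 26.8 CPM (1.00 ± 0.25, adjusted p = 0.00787). Cd38, an enzyme that consumes NAD, rose from 66.1, 96.3 and 71.3 CPM to 156, 179 and 184 CPM (1.15 ± 0.17, adjusted p = 7.15e-05). Groups were separate for each of these named genes. The list of 35 pentose phosphate, glycogen and sugar nucleotide genes had 5 higher and 1 lower, 9 and 3 with the block (median 0.08). Without the block that is 17.1% called, against 12.2% of all tested genes and 14.9% of tested protein-coding genes.

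Enzymes around arginine and ornithine changed in both directions. Arg1, which hydrolyses arginine to ornithine, stood at 45.9, 50.1 and 47.8 CPM in control and 4.73, 3.59 and 4.36 CPM at 12 h. Ass1, which starts the resynthesis of arginine from citrulline, rose from 8.35, 8.74 and 6.13 CPM to 27.5, 17.8 and 34.7 CPM (1.77 ± 0.38, adjusted p = 0.0026). Odc1, which turns ornithine into the polyamine putrescine (chr12:17544794-17551505, plus strand), rose from 70.3, 59.2 and 84.1 CPM to 431, 280 and 483 CPM (2.48 ± 0.25, adjusted p = 3.44e-07). The enzyme that feeds ornithine thus fell where the enzyme that uses it rose. Paox, which oxidizes acetylated polyamines, fell from 27.1, 19.5 and 25.9 CPM to 9.23, 8.8 and 14.1 CPM (-1.17 ± 0.25, adjusted p = 0.00214). Of 37 tested amino acid and polyamine genes 2 were higher and 4 lower, 8 and 6 with the block (median -0.12). Without the block that is 16.2% called, against 12.2% of all tested genes and 14.9% of tested protein-coding genes.

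Genes of fatty acid storage were among those that rose, and Cpt1a fell. Plin2, which coats lipid droplets, rose from 81.8, 66.1 and 71.3 CPM to 143, 112 and 135 CPM (0.83 ± 0.14, adjusted p = 0.000313). Hilpda, an inhibitor of the droplet lipase ATGL, rose from 70.1, 70.8 and 78.6 CPM to 150, 128 and 159 CPM (0.99 ± 0.16, adjusted p = 0.000149). Acsl1, an acyl-CoA synthetase, rose from 26.5, 31 and 29.8 CPM to 59.2, 55.9 and 61 CPM (1.01 ± 0.17, adjusted p = 0.000198). Of 34 tested genes of droplets and fatty acid handling 7 were higher and none was called lower, 11 and 4 with the block (median 0.15). Cpt1a, which brings long-chain acyl groups into mitochondria, fell from 51.8, 36.8 and 43.1 CPM to 9.91, 11 and 10.3 CPM (-2.07 ± 0.23, adjusted p = 1.44e-06). The 3 control values lay more than 3-fold above the treated ones. Yet over the 30 tested oxidation genes only 1 was higher and 3 lower. That is 13.3% called, against 12.2% of all tested genes and 14.9% of tested protein-coding genes. Scd2, the desaturase, stood at 3325, 2716 and 3458 CPM and 2910, 2472 and 3198 CPM and did not pass (-0.15 ± 0.16, adjusted p = 0.658). Degs1, the last desaturase of ceramide synthesis, rose from 74.1, 106 and 100 CPM to 246, 229 and 307 CPM (1.48 ± 0.18, adjusted p = 3.51e-06), and Pla2g5, a secreted phospholipase A2, from 24.4, 19.5 and 17.2 CPM to 78.8, 54.4 and 59.5 CPM (1.66 ± 0.21, adjusted p = 7.49e-06). In nucleotide metabolism Ampd3, which deaminates AMP, rose from 16.3, 18 and 20.2 CPM to 40.7, 51.2 and 52.3 CPM (1.41 ± 0.20, adjusted p = 3.48e-05).

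Among metal transporters every called gene was higher. Of 27 tested carriers of iron, zinc, copper, manganese, magnesium and heme, 13 (48.1%) were higher and none was called lower, 14 and 0 with the replicate block and 10 and 0 without the libraries numbered 2, with a median of 0.55. The list was made after values had been seen, so its count is a description. Slc11a2, the ferrous iron importer DMT1 (chr15:100387898-100425072, minus strand), rose from 53.6, 38.1 and 54.5 CPM to 342, 235 and 335 CPM (2.64 ± 0.23, adjusted p = 2.41e-08). Slc11a1, the phagosomal metal transporter NRAMP1, rose from 36.9, 36.1 and 39.8 CPM to 77.2, 57.7 and 85.4 CPM (0.96 ± 0.24, adjusted p = 0.00743), a call lost without 12 h library 3 (adjusted p = 0.0504). Slc48a1, which carries heme out of the phagolysosome, rose from 66.1, 53.6 and 50.2 CPM to 113, 111 and 152 CPM (1.15 ± 0.20, adjusted p = 0.000272). Slc25a37, the mitochondrial iron importer mitoferrin, rose from 59.1, 44.9 and 53.5 CPM to 90.5, 99 and 104 CPM (0.90 ± 0.16, adjusted p = 0.000298). These 4 move iron or heme toward the cytosol or the mitochondrion. Slc40a1, ferroportin and the only known cellular iron exporter, stood at 111, 143 and 155 CPM in control and 141, 162 and 174 CPM at 12 h and did not pass (0.22 ± 0.16, adjusted p = 0.449). Of the zinc importers, Slc39a14, which also carries iron, rose from 152, 128 and 171 CPM to 269, 206 and 271 CPM (0.73 ± 0.17, adjusted p = 0.00466). Slc39a4 rose from 1.46, 1.32 and 0.204 CPM to 7.88, 5.21 and 4.95 CPM (2.54 ± 0.45, adjusted p = 0.000347). The copper transporter Slc31a2 rose from 45.9, 46.3 and 49 CPM to 98.6, 82.4 and 111 CPM (1.05 ± 0.17, adjusted p = 0.000126). Slc30a4, a zinc exporter, stood at 64.1, 91.5 and 97.4 CPM and 98.6, 132 and 156 CPM and did not pass (0.61 ± 0.22, adjusted p = 0.082) but did with the replicate block (adjusted p = 3.31e-05). Slc25a37 and Slc39a14 were chosen after their values were seen.

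Over all 191 tested solute carriers (383 in the annotation) 31 were higher and 9 lower, with 52 and 17 under the block and a median of 0.07. Slc22a4, the carrier of the antioxidant ergothioneine, rose from 6.89, 6.93 and 3.68 CPM to 48.6, 31.8 and 42.2 CPM (2.79 ± 0.24, adjusted p = 2.59e-08). The lactate carrier Slc16a1 rose from 283, 285 and 317 CPM to 439, 428 and 551 CPM (0.68 ± 0.15, adjusted p = 0.00367). Slc2a8, an intracellular sugar carrier, fell from 13.8, 10.1 and 14.9 CPM to 1.8, 2.16 and 3.37 CPM (-2.38 ± 0.47, adjusted p = 0.00106). ABC transporters moved more evenly, with 4 higher and 5 lower of 30 tested (median -0.16), 7 and 8 with the block. Abcd2, the peroxisomal importer of very long-chain acyl-CoA (chr15:91145871-91191799, minus strand), fell from 101, 120 and 108 CPM to 12.6, 11.9 and 11.7 CPM (-3.18 ± 0.19, adjusted p = 6.52e-11). Abca9 fell from 109, 126 and 117 CPM to 29, 20.3 and 24.8 CPM (-2.25 ± 0.18, adjusted p = 6.13e-09), and its relative Abca6 from 17.7, 25.4 and 13.9 CPM to 2.48, 4.85 and 2.97 CPM (-2.45 ± 0.32, adjusted p = 8.63e-06). Both belong to a group of ABCA lipid transporters that did not move as 1. Abca8b, their neighbour on chromosome 11, was called higher, a call lost in 2 of 15 alternative runs. Abcc1, which exports glutathione conjugates and leukotriene C4, rose from 167, 177 and 187 CPM to 347, 320 and 355 CPM (0.94 ± 0.14, adjusted p = 4e-05). In all carriers of this paragraph given with library values the groups were separate.

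**Figure D3:**
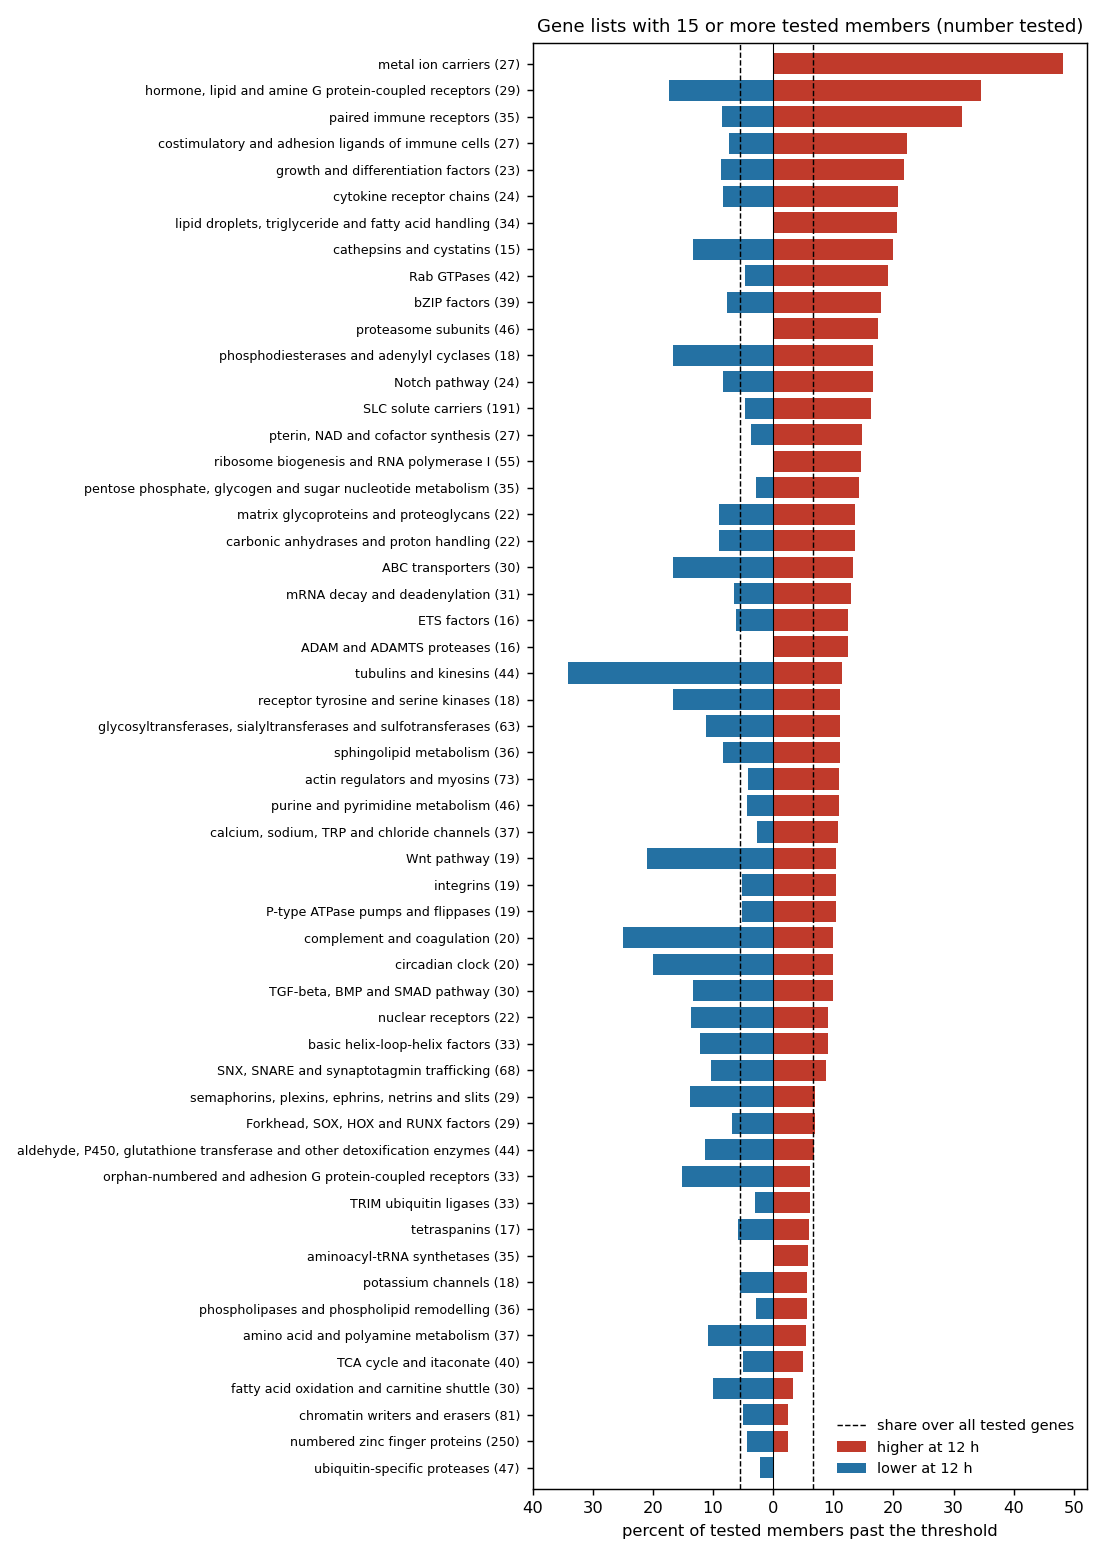
Percent of tested members higher (red, to the right) and lower (blue, to the left) at 12 h in the NC line for gene lists with 15 or more tested members, 1 list left out (number tested in brackets); dashed lines mark the shares over all tested genes, 6.69% higher and 5.55% lower. Metal ion carriers reach 48.1% on the higher side with none lower, and tubulins and kinesins reach farthest on the lower side.

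Among matrix proteases and their regulators Mmp13, Mmp9 and Plaur rose. Mmp13, the collagenase 3 (chr9:7272514-7283331, plus strand), rose from 1.67, 4.29 and 3.27 CPM to 98.2, 113 and 122 CPM (5.13 ± 0.25, adjusted p = 1.83e-12), the largest fold of any matrix gene named here. Its window (RefSeq, GRCm38.p6, chr9:7272264-7272563, plus strand, 250 bases before to 50 after the start) is shown as that of the matrix gene that changed most. Capitals mark a TGANTCA match at -35 and a match to the interferon-response core on the other strand at -146.
Mmp13: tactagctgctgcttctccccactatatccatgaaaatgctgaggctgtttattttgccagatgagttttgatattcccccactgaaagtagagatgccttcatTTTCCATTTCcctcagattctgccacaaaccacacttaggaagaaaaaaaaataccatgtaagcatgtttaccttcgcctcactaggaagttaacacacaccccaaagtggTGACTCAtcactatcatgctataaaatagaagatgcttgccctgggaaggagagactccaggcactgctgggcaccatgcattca
Mmp9, gelatinase B, rose from 8.35, 8.91 and 7.35 CPM to 26.6, 18 and 29.7 CPM (1.58 ± 0.27, adjusted p = 0.00025). Plaur, the urokinase receptor, rose from 15.2, 17.6 and 20 CPM to 35.8, 40.6 and 42.2 CPM (1.16 ± 0.19, adjusted p = 0.000167). The groups were separate in both. Of 11 tested genes of metalloproteinases, TIMPs and the plasminogen system 5 were higher and 2 lower (median 0.19).

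Collagens and laminins moved in both directions, 3 higher and 3 lower of 12 tested (median 0.06). Col4a2, a chain of basement membrane collagen IV, rose from 4.17, 2.14 and 7.15 CPM to 37.1, 27.1 and 31.3 CPM (2.84 ± 0.31, adjusted p = 1.02e-06). Thbs1, the matricellular protein thrombospondin-1, fell from 41.3, 28.4 and 29.6 CPM to 10.4, 6.65 and 8.32 CPM (-1.97 ± 0.24, adjusted p = 4.33e-06). Of 20 tested complement and coagulation genes 2 were higher and 5 lower, 4 and 8 with the block (median 0.03). Within the protein C pathway the 2 receptors diverged: Procr, the protein C receptor, rose from 11.5, 5.61 and 8.78 CPM to 52, 37.4 and 60.2 CPM (2.54 ± 0.29, adjusted p = 1.87e-06), and Thbd, thrombomodulin, fell from 130, 96.8 and 109 CPM to 48, 32.5 and 40.4 CPM (-1.47 ± 0.20, adjusted p = 1.24e-05). F10, coagulation factor X, fell from 16.9, 11.7 and 11.6 CPM to 4.28, 1.44 and 4.56 CPM (-1.98 ± 0.37, adjusted p = 0.000662), and Vwf, von Willebrand factor, from 37.8, 34 and 36.3 CPM to 16.7, 12.8 and 12.3 CPM (-1.38 ± 0.19, adjusted p = 1.6e-05). Complement C3 rose from 108, 77.2 and 65.5 CPM to 304, 214 and 281 CPM (1.67 ± 0.24, adjusted p = 3.4e-05). No library of one group reached the range of the other in any of these genes. Vwf is also an endothelial marker. The summed level of the 12 fibroblast and endothelial markers, most of it Vwf itself, was 35.8 to 39.6 CPM in control and 18.2 to 22.1 CPM at 12 h, with 6 markers at 0. Without Vwf the other 11 summed to 1.81 to 2.65 CPM in control and 5.4 to 7.36 CPM at 12 h. Of the 3 tested markers Vwf was lower and Kdr higher, and no marker was called higher without the libraries numbered 2. Whether other cells had a part in these values was not tested.

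Of 44 tested tubulins and kinesins 5 were higher and 15 lower, 9 and 17 with the block (median -0.36). Kif11, the motor that separates spindle poles, fell from 190, 234 and 200 CPM to 88.5, 105 and 97.1 CPM (-1.10 ± 0.15, adjusted p = 1.64e-05). Kif22, a chromosome-binding motor, fell from 21.5, 22.8 and 33.1 CPM to 11.5, 7.01 and 13.3 CPM (-1.29 ± 0.30, adjusted p = 0.00492). Kif5c, a cargo motor known from neurons, fell from 12.7, 10.6 and 10.2 CPM to 1.58, 3.59 and 3.96 CPM (-1.85 ± 0.31, adjusted p = 0.000235). The summed neuron markers were lower at 12 h too, but in control most of that sum was Gad1, as given above. Of the 12 neuron markers 9 were at 0, and Tubb3 did not pass (-0.66 ± 0.53, adjusted p = 0.504). Kif3b, a transport kinesin, rose from 263, 209 and 240 CPM to 432, 344 and 392 CPM (0.72 ± 0.15, adjusted p = 0.00211), so the 2 cargo motors named here moved in opposite directions. Tuba1a rose from 178, 117 and 133 CPM to 547, 363 and 541 CPM (1.76 ± 0.20, adjusted p = 1.78e-06), and Tubb2a from 63, 33 and 46.1 CPM to 127, 98.4 and 115 CPM (1.26 ± 0.20, adjusted p = 0.000126). Tubulin genes are close copies and 26.2% of the exon bases of Tuba1a lie under another gene model, so the split between them is uncertain. Tubb5, a beta-tubulin, stood at 3293, 2144 and 2849 CPM and 2701, 1820 and 2684 CPM and did not pass (-0.20 ± 0.22, adjusted p = 0.646). Kif11, Kif3b and Tubb2a were chosen after their values were seen.

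On the actin side, 8 of 73 tested regulators and myosins were higher and 3 lower (median 0.20). That is 15.1% called, near the 14.9% of tested protein-coding genes, where 12.2% of all tested genes were called. With the block 22 were higher and 4 lower, where 13.7% of all tested genes were higher and 11.0% lower. Marcks, a membrane-bound regulator of cortical actin, rose from 17.3, 29 and 16.5 CPM to 80.6, 99.5 and 99.1 CPM (2.14 ± 0.26, adjusted p = 5.12e-06), and its relative Marcksl1 from 318, 171 and 222 CPM to 903, 519 and 818 CPM (1.66 ± 0.26, adjusted p = 0.000111). Vasp, which extends actin filaments, rose from 143, 138 and 107 CPM to 294, 258 and 269 CPM (1.08 ± 0.15, adjusted p = 1.68e-05). Among guidance receptors, Plxna1 rose from 358, 246 and 337 CPM to 1122, 760 and 1097 CPM (1.66 ± 0.21, adjusted p = 6.42e-06), Nrp2 from 76.2, 84.4 and 68.6 CPM to 199, 224 and 225 CPM (1.50 ± 0.16, adjusted p = 8.62e-07), and Plxnc1 fell from 647, 579 and 581 CPM to 368, 323 and 364 CPM (-0.78 ± 0.14, adjusted p = 0.000561). Plexins and neuropilins together form the receptors of semaphorins. Of 42 tested Rab GTPases, which direct vesicles, 8 were higher and 2 lower, 14 and 3 with the block (median 0.05). Rab20, a phagosome Rab, rose from 41.5, 35.5 and 31.9 CPM to 123, 107 and 125 CPM (1.71 ± 0.16, adjusted p = 1.29e-07), with 25.6% of its exon bases shared with a transcript of the other strand.

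Of 46 tested proteasome subunits 8 were higher and none was called lower. That is 17.4% called, against 12.2% of all tested genes and 14.9% of tested protein-coding genes. With the block 22 were higher and 1 lower, where 13.7% of all tested genes were higher and 11.0% lower. The median log2 fold change of the subunits was 0.50. Psmd7, a lid subunit, rose from 235, 178 and 152 CPM to 441, 356 and 376 CPM (1.05 ± 0.19, adjusted p = 0.000377), and the base subunit Psmc1 from 213, 172 and 174 CPM to 346, 279 and 355 CPM (0.81 ± 0.15, adjusted p = 0.000615). The libraries of the groups did not overlap in either gene. Of 55 tested ribosome biogenesis genes 8 were higher and none was called lower (median 0.25). That is 14.5% called, near the 14.9% of tested protein-coding genes, where 12.2% of all tested genes were called. With the block 20 were higher and 1 lower, beside the same block shares of all tested genes. Pno1, a factor of small-subunit assembly, rose from 45.7, 60.4 and 49 CPM to 103, 123 and 127 CPM (1.19 ± 0.15, adjusted p = 8.15e-06). Of 15 tested cathepsins and cystatins 3 were higher and 2 lower, 7 and 2 with the block (median 0.27). Ctsz, a lysosomal carboxypeptidase, stood at 3844, 2183 and 2491 CPM and 5615, 3577 and 4855 CPM and did not pass (0.72 ± 0.25, adjusted p = 0.0655) but did with the replicate block (adjusted p = 2.3e-08). Ctsb, another lysosomal protease, stood at 7155, 5004 and 5762 CPM and 9810, 6831 and 9646 CPM (0.55 ± 0.21, adjusted p = 0.088) and likewise passed with the block (adjusted p = 4.06e-05). In both, a control library lay within the range of the treated ones.

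The KD-labelled line, with its own 3 control and 3 treated libraries, gave 1269 genes higher (7.93%) and 1289 lower (8.06%) at 12 h. Of the 1070 genes higher in the NC line, 762 were called higher there too, 71.2% of the NC list and 60.0% of the KD list, and 98.5% had the same sign. Of the 888 lower genes 666 were shared, 75.0% and 51.7% of the lists, and 97.5% had the same sign. The median change of the higher genes was 1.03 in the NC line and 0.90 in the KD-labelled line, and of the lower genes -1.08 and -1.11. The log2 fold change of Acod1 was 4.16 in the NC line and 3.38 in the KD-labelled line, that of Mmp13 5.13 and 4.23, that of Slc11a2 2.64 and 2.95, and that of Abcd2 -3.18 and -2.94.

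The test of the difference itself, the line by 12 h interaction, passed for 12 genes (0.0750%), 331 with the replicate block and 3 to 21 when 1 library at a time was left out, the fewest without NC 12 h library 1. Of the 12 genes of the main fit, 10 (0.0625%) had the higher change in the KD-labelled line and 2 (0.0125%) in the NC line. This split, 83.3% with the higher change in the KD-labelled line, did not hold in all alternatives. The share was 38.1% of 331 genes with the replicate block, 54.9% of 51 with DESeq2 and 58.7% of 46 with no filter on low counts. Trib3, a pseudokinase induced by the amino acid and stress response factor ATF4, in the NC line stood at 507, 352 and 469 CPM and 493, 302 and 487 CPM and did not pass (-0.05 ± 0.23, adjusted p = 0.93). In the KD-labelled line it went from 78.1, 52.9 and 86.1 CPM to 389, 255 and 394 CPM, an interaction of 2.31 ± 0.34 (adjusted p = 0.00578). The treated levels of the lines overlapped and the control levels did not. Aldh1l2, a mitochondrial folate enzyme, fell in the NC line from 80.5, 87.9 and 84.3 CPM to 48, 37.2 and 46 CPM (-0.95 ± 0.17, adjusted p = 0.000401) and rose in the KD-labelled line from 29.7, 20.7 and 19.8 CPM to 40, 31.6 and 35.7 CPM (interaction 1.56 ± 0.24, adjusted p = 0.00915). Sgo2a, which protects centromeric cohesion, fell in both lines and further in the KD-labelled line (interaction -1.62 ± 0.26, adjusted p = 0.0115). Its call in the NC line was lost without the libraries numbered 2 (adjusted p = 0.0879) and with limma on log2 TPM (adjusted p = 0.118 to 0.17). Sgo2a shares 35% of its exon bases with a gene of the other strand. Ifit3, an interferon-induced gene, rose in the NC line from 14.4, 13.2 and 17.2 CPM to 57.4, 37.4 and 52.9 CPM and stood in the KD-labelled line at 31.6, 26.4 and 28.5 CPM in control and 34.8, 25.1 and 28.4 CPM at 12 h (interaction -1.69 ± 0.29, adjusted p = 0.0190).

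**Figure D4:**
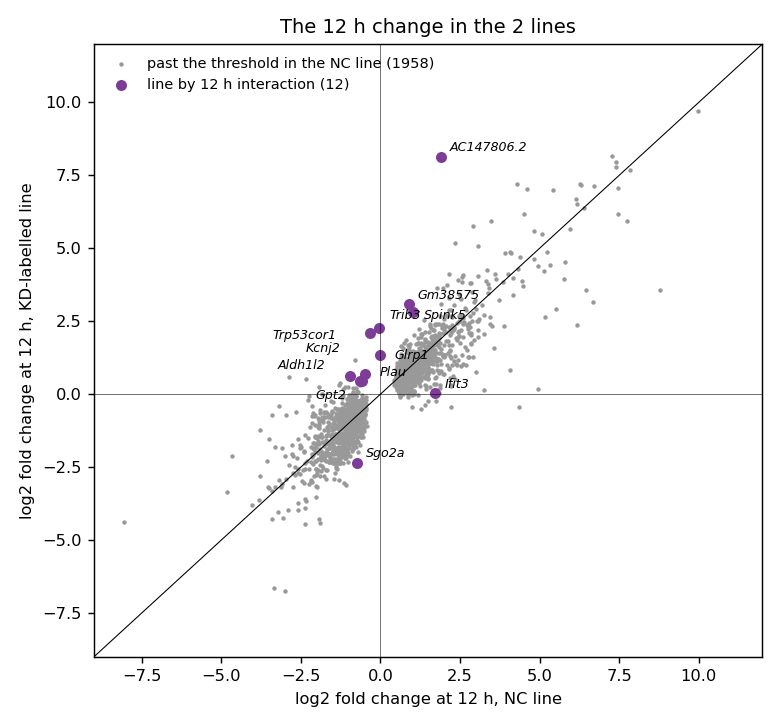
Log2 fold change at 12 h in the KD-labelled line (y axis) against the NC line (x axis) for the 1958 genes past the threshold in the NC line (grey) and the 12 genes with a line by 12 h interaction (purple); the diagonal marks equal change. Most grey points lie in the quadrants of equal sign, and Trib3 lies near 0 on the x axis and at 2.26 on the y axis.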

How the data were processed

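RNA of 18 BV2 libraries was sequenced from total RNA after tagmentation, per the labels' protocols. The sources used here do not give whether strand was kept. The submitters' processing notes name bcl2fastq, HISAT2 2.2.0, featureCounts and DESeq2, with GRCm38 as the build. The authors deposited whole-number counts per gene, not normalized, and a table of TPM, which equalled counts over gene length rescaled (largest gap 2.15e-05%). Of 55487 genes 28940 had a count. 55141 IDs were found in GENCODE M21.

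Counts were tested with edgeR 4.0.16 (quasi-likelihood, TMM factors, filterByExpr with minimum count 10, robust, limma 3.58.1, R 4.3.3), with 1 mean per group and all 18 libraries sharing the estimate of spread. The 15996 genes tested held 99.65% of counts, and the median biological coefficient of variation was 0.221. Adjusted p-values are Benjamini-Hochberg over all tested genes. The fitting was tested on simulated data. No same-group pair of NC libraries agreed within counting noise. Same-numbered NC libraries correlated in their deviations from group means (0.353, 0.434 and 0.148), as did the KD-labelled ones (0.256, 0.418 and 0.180), so the numbers were taken to pair libraries; what a number stands for is not labelled. The tests stayed without the block.

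Members and the 70 gene lists were chosen with earlier results of these data known. Genes were named by rule. Per list, these were up to 6 called members with the largest change and at least 5 CPM and up to 2 uncalled members with the highest CPM. Among all called genes, they were the 15 largest changes in each direction and the 10 largest gains and losses of TPM. The interaction genes were named as well. The text describes a selection of these, and says where a gene was named after its values were seen. Against a group of 0 counts a fold is bounded with 3 counts over the group. With 1 to 3 counts an exact 95% interval is given, for counting error only. Alternatives were other scalings and filters, DESeq2 1.42.0, limma on log2 TPM (pseudocounts 1 and 0.1), the replicate block, the compared groups alone, and libraries left out. Some items are not reported here.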

Additional observations from a re-analysis of the deposited data

Results flagged for a closer look

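The 12 h change differed between the lines by the test of the interaction (edgeR's quasi-likelihood test) for 12 genes, given as the KD-labelled minus the NC log2 fold change. No explanation was tested. Where the change was the higher in the KD-labelled line, the interaction was 6.25 ± 0.81 for AC147806.2 (adjusted p = 0.00283), 2.41 ± 0.42 for Trp53cor1 (0.0190), 2.31 ± 0.34 for Trib3 (0.00578), 2.19 ± 0.41 for Gm38575 (0.0328), 1.78 ± 0.31 for Spink5 (0.0190), 1.56 ± 0.24 for Aldh1l2 (0.00915), 1.34 ± 0.24 for Glrp1 (0.0190), 1.16 ± 0.21 for Plau (0.0190), 1.11 ± 0.20 for Kcnj2 (0.0190) and 1.01 ± 0.19 for Gpt2 (0.0328). It was -1.62 ± 0.26 for Sgo2a (0.0115) and -1.69 ± 0.29 for Ifit3 (0.0190). AC147806.2 had 0 counts in all KD-labelled control libraries and 103 over the 3 treated ones, at least 37.3-fold higher with 3 counts over the control group, so its fitted value depends on the prior count. Exons of Trp53cor1 lie under other gene models for 44.1% of their bases.

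Plau (urokinase), Kcnj2 (an inward-rectifier potassium channel), Gpt2 (mitochondrial alanine transaminase) and Aldh1l2 passed in both lines with opposite directions. The opposite direction rests on the calls in both lines. The NC call was lost for Plau in 9 of 17 alternatives (adjusted p = 0.0582 to 0.105, among them 0.0847 and 0.0758 when the first or the second treated NC library was left out and 0.0747 when the first control was), for Gpt2 in 4, for Kcnj2 in 3 and for Aldh1l2 in 0. The KD-labelled changes were 0.68 ± 0.15 for Plau (adjusted p = 0.00192), 0.61 ± 0.18 for Aldh1l2 (0.0174), 0.46 ± 0.14 for Kcnj2 (0.0267) and 0.44 ± 0.13 for Gpt2 (0.029). How often these KD-labelled calls held in the alternatives was not counted. Plau stood at 253, 235 and 240 CPM in NC control and 174, 156 and 192 CPM in NC 12 h, against 113, 110 and 139 CPM and 201, 171 and 208 CPM in the KD-labelled line. Gpt2 stood at 125, 137 and 138 CPM and 88.5, 84.2 and 96.7 CPM, against 55.5, 57.8 and 52.6 CPM and 76.2, 68.9 and 79.4 CPM. In both genes the control levels were higher in the NC line, and in both lines the control and treated libraries were separate. Trib3 passed in all 20 alternatives of the interaction test, AC147806.2 in 19, Aldh1l2 in 18 and Sgo2a in 17, and the other 8 in 6 to 13.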

How the results depend on the processing

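Of 325 called genes picked by the naming rule, 206 kept their call in every alternative run, 119 lost it in at least 1, and none reversed direction. With the replicate block the NC line gave 3948 genes, 2190 higher and 1758 lower, the KD-labelled line 4600 (2558 without it) and the interaction 331 (12 without it). Of 124 list counts the block moved 73 by over 1.5 times, leaving out the libraries numbered 2 moved 32 and RLE factors moved none. Leaving out 1 library at a time gave 714 to 1046 higher genes, 583 to 815 lower, 1297 to 1817 in all, 1884 to 2235 in the KD-labelled line and 3 to 21 interaction genes. The lowest NC counts came without 12 h library 3 (714, 583 and 1297). On TPM the lower genes numbered 518 with pseudocount 1, 484 with 0.1 and 530 with no filter. The causes were not tested. Interaction genes numbered 46 with no filter on low counts, 51 with DESeq2, and 2 without the libraries numbered 2 and 2 with only the compared groups fitted. In the NC line DESeq2 gave 2205 genes and the compared groups alone 1435. With about 5 counts behind 1 CPM, changes of genes near 1 CPM rest on few counts.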
